A study of Caenorhabditis elegans with 2 samples.

Results

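The genes annotated by Ensembl as long intergenic noncoding RNA (lincRNA) genes were examined for chromatin regions of UNC-39, a homeodomain transcription factor of the SIX4 and SIX5 family. Members were all nuclear genes with the biotype lincRNA in the WBcel235 annotation, with no measured value used in the choice, and there were 194 of them among 46890 nuclear genes. A region was counted at a gene when its summit lay in the gene or within 500 bases of either end. On this rule 135 of the 30000 regions of the pooled list lay at 88 of the 194 genes. The material was 1 group of whole L4 larvae of Caenorhabditis elegans, both sexes together and age not recorded, of the strain OP186. All animals, in both replicates, carried the mutation unc-119(ed3) on chromosome III and the transgene wgIs186, from which UNC-39 is made with GFP and FLAG at its C-terminal end. The assay was ChIP-seq, in which protein-bound DNA is recovered with an antibody and sequenced, in 2 biological replicates. The promoter of the transgene is not given in the sources used here, and a strain without the tag was not analysed here. Whole animals mix all tissues, so a region cannot be tied to a cell type, and RNA from the lincRNA genes was not measured.

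LincRNA genes give rise to RNAs that are longer than the known classes of small RNA, are transcribed outside protein-coding genes and are not known to encode a protein. In the worm most were found by joining RNA sequencing with maps of transcript 3′ ends, carry the symbol linc with a number, and have no known function. An exception is lep-5, which acts in the pathway that times larval development. UNC-39 is known for its part in mesoderm fate and in the migration of cells and axons.

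The genes were short, with a median length of 761 bases, quartiles of 397 and 1599.5 bases, and a range from 101 to 6035 bases. Of the 194, 169 carried a linc symbol and 56 had a single annotated exon. Although intergenic by name, 42 overlapped the span of a protein-coding gene on either strand. Of the 135 summits 16.3% fell in such a span, against 63.2% of all pooled summits. Each replicate had a list of 30000 regions of its own, and all 3 lists were built to contain background as well as peaks. The signal value of each region is the authors' own, of unstated scale, so it was turned into a rank within its list, with 1 for the strongest. Read depth is unknown. The intervals below are exact Clopper-Pearson intervals at 95% that cover counting over genes or regions only, since genes and regions are not replicates. With 1 group of 2 samples no test between conditions was possible, and values are given as descriptions.

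The sequences of 5 strong sites at lincRNA genes are shown first. Of these, 4 are sites that ranked 3000 or better in both replicates, and that of linc-78 is an example of a site near both a lincRNA start and a protein-coding start. The site of linc-91, the second strongest, is described below without its sequence, and that of linc-109, at rank 495, held none of the words searched for and is not printed. Each holds the pooled summit with 100 bases on either side, read from the RefSeq assembly of WBcel235 (the same sequence as ce11) on the plus strand. Capitals mark the 6-base words searched for on either strand, which were the SIX-type words TGATAC and also TGACAC, the repeats GAGAGA and also ACACAC, the word CGTCTC and the homeodomain core TAATTA, with overlapping copies marked as a single stretch. The windows are chrV:1151371-1151571 in the only exon of linc-128, chrIV:11809834-11810034 beyond the 3′ end of linc-151, and chrIII:3037308-3037508 at the start of linc-143. The remaining windows are chrII:7287501-7287701 in linc-107 and chrX:2242846-2243046 before the start of linc-78.
linc-128: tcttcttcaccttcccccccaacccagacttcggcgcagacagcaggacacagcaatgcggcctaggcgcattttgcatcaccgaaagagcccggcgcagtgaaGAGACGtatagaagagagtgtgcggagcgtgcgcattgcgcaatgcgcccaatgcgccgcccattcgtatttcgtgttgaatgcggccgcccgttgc
linc-151: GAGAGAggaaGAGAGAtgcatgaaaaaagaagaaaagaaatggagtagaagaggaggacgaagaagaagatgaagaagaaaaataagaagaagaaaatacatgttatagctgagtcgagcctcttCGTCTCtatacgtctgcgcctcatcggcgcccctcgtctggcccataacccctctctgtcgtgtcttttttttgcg
linc-143: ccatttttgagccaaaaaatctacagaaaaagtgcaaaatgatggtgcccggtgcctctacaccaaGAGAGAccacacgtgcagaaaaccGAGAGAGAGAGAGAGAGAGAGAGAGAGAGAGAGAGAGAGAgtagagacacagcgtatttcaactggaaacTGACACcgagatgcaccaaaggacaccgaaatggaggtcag
linc-107: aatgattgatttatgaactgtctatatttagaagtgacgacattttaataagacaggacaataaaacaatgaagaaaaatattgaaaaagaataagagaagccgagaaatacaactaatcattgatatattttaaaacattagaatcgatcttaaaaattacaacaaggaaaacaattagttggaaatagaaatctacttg
linc-78: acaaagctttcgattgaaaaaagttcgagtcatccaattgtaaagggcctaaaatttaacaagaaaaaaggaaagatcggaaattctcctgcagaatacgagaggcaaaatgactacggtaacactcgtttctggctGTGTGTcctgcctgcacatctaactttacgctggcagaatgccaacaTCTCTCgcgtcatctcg
The linc-128 window held CGTCTC, read as its reverse complement, and had a G+C content of 59.7%. The linc-151 window held 2 copies of GAGAGA at its left edge and CGTCTC right of the summit. The linc-143 window held TGACAC, and across the summit G and A alternated without a break for 41 bases. A run of at least 20 such bases stood in no other of the 135 windows at lincRNA genes, in 36 of the 30000 pooled windows (0.120%) and in 10 of the 3000 strongest (0.333%), a count made after the sequence had been seen. The linc-107 window held none of the words and had a G+C content of only 24.9%. In the linc-78 window ACACAC and GAGAGA both lay on the minus strand.

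Regions at lincRNA genes were about as frequent as elsewhere in the genome. A pooled summit lay at 88 of 194 lincRNA genes (45.4%, interval 38.2 to 52.6), against 46.1% of all nuclear genes and 64.1% of protein-coding genes, which are longer, with a median of 2027 bases. In replicate 1 there were 87 lincRNA genes with a region (44.8%, against 46.3% of all genes), and in replicate 2 there were 92 (47.4%, against 44.8%). Per length the lincRNA spans and flanks held 317.7 pooled summits per Mb and the genome 299.2, a ratio of 1.06 (interval 0.891 to 1.26). The ratio was 0.991 in replicate 1 and 1.09 in replicate 2. Both replicates' intervals held 1, so no excess or lack of regions was seen at this size of set.

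Spans and flanks did not differ much in density. Inside lincRNA genes there were 316.2 summits per Mb (interval 248.3 to 396.8), and in the flanks of 500 bases there were 319.7 (244.6 to 410.5). The space outside protein-coding spans as a whole held 294.8. Among other annotated classes, pseudogenes had a density ratio of 0.684 (0.644 to 0.726), antisense RNA genes 0.966 (0.732 to 1.25), and the large class of other noncoding RNA genes 1.30 (1.25 to 1.34). The lincRNA value of 1.06 thus lay between those of pseudogenes and of other noncoding RNA genes. Its interval (0.891 to 1.26) reached neither estimate but overlapped the interval of other noncoding RNA genes. None of these differences was tested.

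**Figure D1:**
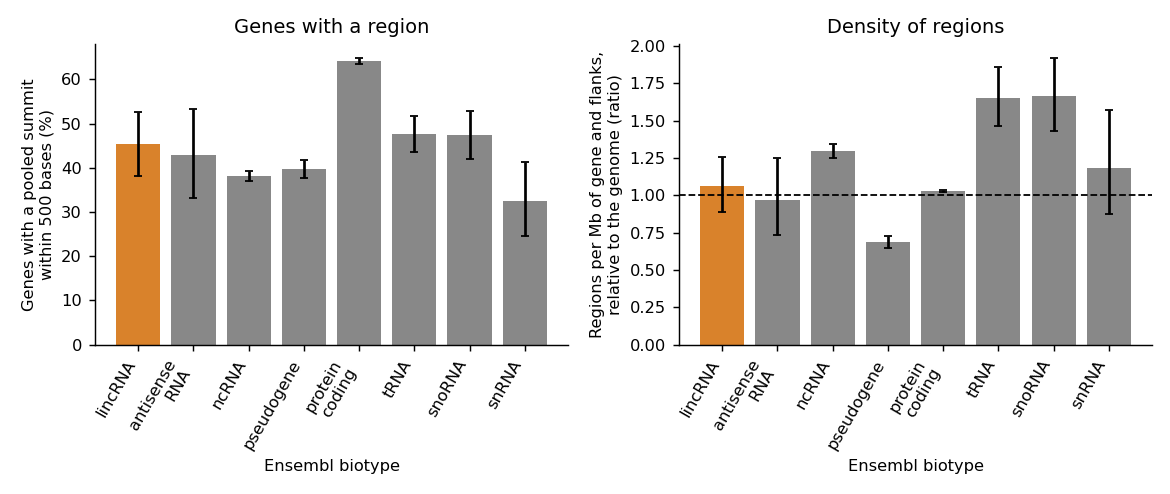
The left panel plots the share of genes (%) with a pooled summit within 500 bases, and the right panel the regions per Mb of gene and flanks relative to the whole genome, for 8 Ensembl biotypes; lines are exact 95% intervals and the dashed line is the genome value. The lincRNA bars, in orange, stand at 45.4% and 1.06.

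The share with a region was highest among the longest genes. Of the 67 lincRNA genes of up to 500 bases 37.3% had a pooled region, of the 47 over 500 and up to 1000 bases 40.4%, and of the 43 over 1000 and up to 2000 bases 37.2% (interval 23.0 to 53.3). Of the 37 longer than 2000 bases 75.7% had one (58.8 to 88.2). Protein-coding genes of the same classes had 29.5%, 45.6%, 53.8% and 79.0%. The lincRNA interval lay below the protein-coding value in the class over 1000 and up to 2000 bases, and held it in the other 3 classes. Genes with 1 exon had a region in 39.3% of 56 cases and genes with 2 or more in 47.8% of 138, with median lengths of 409 and 941 bases. On the plus strand 38.7% of 93 genes had one and on the minus strand 51.5% of 101, with overlapping intervals of 28.8 to 49.4 and 41.3 to 61.6, and the plus-strand genes were the longer ones (median 1008 against 580 bases).

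The chromosomes differed in the share of lincRNA genes with a region. On V 25 of 35 lincRNA genes had a pooled region (71.4%, interval 53.7 to 85.4), an interval that holds the 59.1% of the protein-coding genes there. On II 14 of 43 did (32.6%, 19.1 to 48.5, against 60.5%), on I 8 of 23 (34.8%, against 67.1%) and on IV 9 of 26 (34.6%, against 63.1%). Chromosome III had 14 of 29 (48.3%, against 69.5%) and X 18 of 38 (47.4%, 31.0 to 64.2, against 71.0%). In density, relative to the same chromosome, V had the highest ratio, 1.52, followed by III (1.20), X (1.14), I (1.00) and II (0.761). The lowest was that of IV (0.629). These ratios rest on few regions, from 10 on IV to 33 on V. The V genes were not longer, with a median of 541 bases against 578 on II and 738.5 on X.

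In the single replicates the order was less marked. V had 21 of 35 genes with a region in replicate 1 (60%) and 20 in replicate 2 (57.1%), and II had 15 of 43 in each (34.9%). X had 15 of 38 in replicate 1 (39.5%) and 20 in replicate 2 (52.6%). V thus led in both replicates. Of the 135 regions at lincRNA genes 30 were on X (22.2%, interval 15.5 to 30.2), against 19.4% of all pooled regions, and 33 were on V (24.4%, 17.5 to 32.6), against 20.5%.

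**Figure D2:**
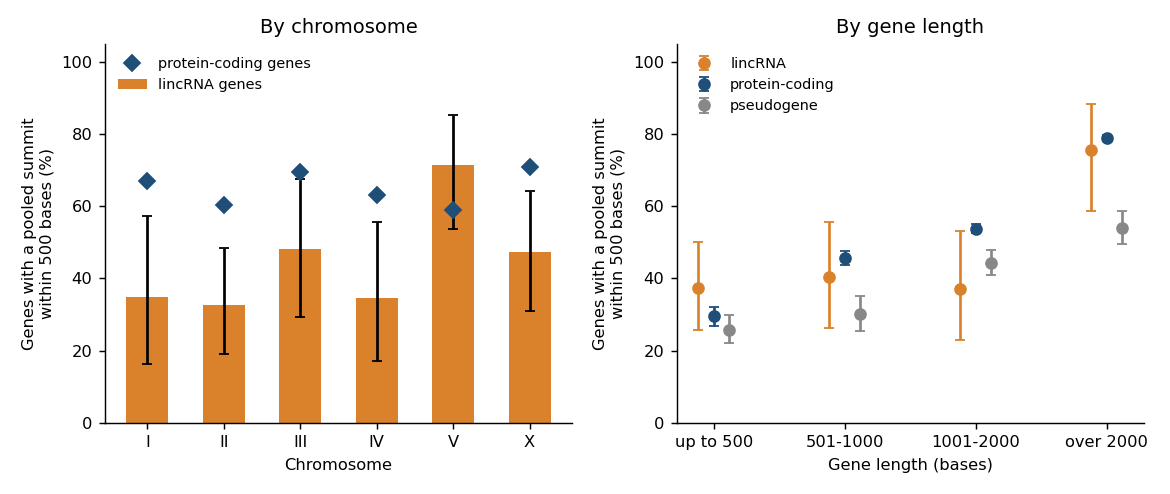
Share of genes (%) with a pooled summit within 500 bases, by chromosome (left; bars are lincRNA genes, diamonds protein-coding genes) and by gene length in bases (right); lines are exact 95% intervals. On V the lincRNA bar reaches 71.4%, and among genes over 2000 bases the lincRNA point stands at 75.7% beside 79.0% for protein-coding genes.

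By rank the regions at lincRNA genes spanned the whole list, with a tail of strong ones. Their pooled ranks ran from 20 to 29914 with a median of 13050, where the full list has 15000.5. The quartiles were 6550.5 and 22029.5. The median was 13477 among 126 regions of replicate 1 and 11555.5 among 138 of replicate 2. Regions of rank 3000 or better, called strong here, numbered 23 of 135 (17.0%, interval 11.1 to 24.5), against 10% of the pooled list by construction and 11.0% of pooled regions with a summit outside protein-coding spans. Replicate 1 had 24 strong regions of 126 (19.0%, 12.6 to 27.0) and replicate 2 had 29 of 138 (21.0%, 14.5 to 28.8). The intervals of all 3 lists lay above 10%, and the lists are not independent, since the pool holds both replicates.

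Several other noncoding classes had similar shares of strong regions, but not the piRNA genes. The shares were 19.3% for antisense RNA genes, 15.8% for other noncoding RNA genes, 21.2% for tRNA genes and 20.9% for snoRNA genes. For snRNA genes the share was 22.9% and for miRNA genes 19.5%. Lower shares were found for piRNA genes (7.23% of 1480 regions), protein-coding genes (9.81%) and pseudogenes (8.06%). Counted by gene, 22 lincRNA genes had a strong pooled region (11.3%), against 6.97% of all genes and 11.0% of protein-coding genes. A strong region in all 3 lists was found at 6 lincRNA genes, linc-128, linc-91, linc-151, linc-143, linc-107 and linc-136 (3.09%, against 1.26% of all genes and 2.25% of protein-coding genes). By gene, then, the lincRNA share was close to that of protein-coding genes, although a strong region made up a larger part of the lincRNA regions. The protein-coding genes are longer (median 2027 against 761 bases), and these shares by gene take no account of length.

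**Figure D3:**
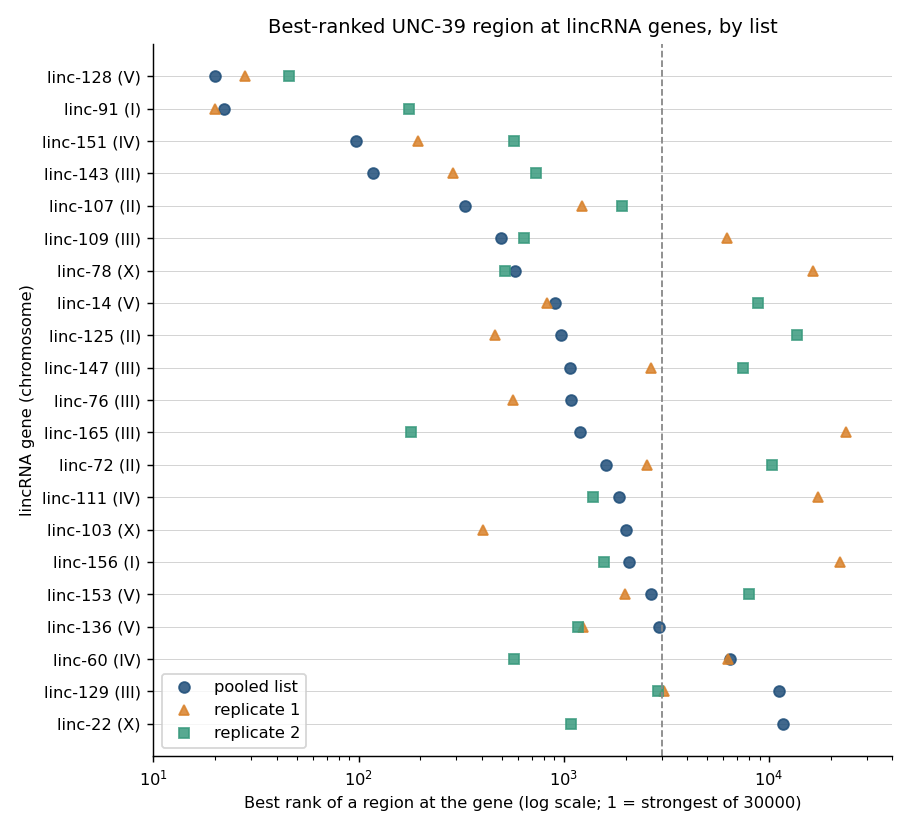
Best rank of a region (log scale, 1 is the strongest of 30000) at each lincRNA gene named by the rule that has a pooled region, in the pooled list (circles), replicate 1 (triangles) and replicate 2 (squares); the dashed line marks rank 3000, and a missing symbol means no region. The top genes, linc-128 and linc-91, lie far left in all 3 lists, whereas at linc-165 the replicates stand at 23729 and 181.

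Of the 63 optimal peaks, thresholded by the authors through IDR (irreproducible discovery rate), 2 lay at lincRNA genes. Thus 1.03% of the lincRNA genes had one (interval 0.125 to 3.67), and the interval holds the 0.19% of all genes. The first was in linc-128 (WBGene00219734, V 1150906 to 1153207, plus strand, 1 exon). Its region, V 1151271 to 1151670, had a signal value of 32.6 and rank 20 in the pool, 20.7 and rank 28 in replicate 1, and 12.9 and rank 46 in replicate 2. The summit lay in the exon, 565 bases from the 5′ end. No protein-coding start was near, the closest being that of cmd-1, the calmodulin gene, at 4800 bases. A second, weaker region of linc-128 lay 384 bases before its 5′ end at rank 2646, with ranks of 29460 and 5437 in the replicates, and another lay in the exon at rank 25857.

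The other optimal peak was in linc-91 (WBGene00219746, chromosome I from 4699610 to 4702866, plus strand, 1 exon). Its region, from 4701310 to 4701709, had a signal value of 32.3 and rank 22 in the pool, 21.8 and rank 20 in replicate 1, and 10.1 and rank 177 in replicate 2. The summit lay in the exon, 1900 bases from the 5′ end. The nearest protein-coding start, 2935 bases away, was that of chd-7, which encodes a chromatin remodeller of the CHD family. The region held ACACAC and had a G+C content of 49.5%, and that in linc-128 had 53.0%, both above the mean of 35.6% ± 5.87 (SD) over the 135 regions.

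Outside the optimal list, 3 further genes were strong in all 3 lists at the same site. Beyond the 3′ end of linc-151 (IV 11808730 to 11809673, plus strand), at 261 bases, a region had signal values of 22.3 in the pool, 13.8 in replicate 1 and 8.21 in replicate 2, with ranks of 97, 194 and 573. Its nearest protein-coding start was that of M117.1, at 4313 bases. The region at linc-143 (III 3035541 to 3037543, minus strand) had 21.5, 13.0 and 6.23 in the same order, with ranks of 118, 289 and 2281. Its summit lay in the exon, 135 bases from the 5′ end, over the alternating G and A run shown above. The whole of linc-143 lies within the span of daf-2, the insulin and IGF receptor gene, on the same strand, so the site also lies in daf-2.

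At linc-107 (II 7287417 to 7287813, minus strand) the region had signal values of 17.3, 10.1 and 6.48, with ranks of 330, 1232 and 1914. Its summit fell 212 bases from the 5′ end in the single exon of a gene of 397 bases, and the nearest protein-coding start, of C30G12.2, was 2825 bases away. The sixth gene, linc-136 (V 3717700 to 3723734, minus strand), is the longest lincRNA gene with 6035 bases. It had 1 pooled region, at rank 2925, with partners at 1242 in replicate 1 and 12991 in replicate 2. Its rank of 1177 in replicate 2 belonged to another region of the gene, so linc-136 was not strong at the same site in both.

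The next genes were strong in the pool and in a single replicate at the same site. At linc-109 (III 10732273 to 10736681) the site of rank 495 ranked 643 in replicate 2 and 9289 in replicate 1, in an exon 2283 bases from the start of tat-3, a P4-type ATPase gene. At linc-78 (X 2243115 to 2243239) the site of rank 576 ranked 517 in replicate 2 and 16435 in replicate 1. It lay 169 bases before the linc-78 start and 328 bases from that of rpl-11.2, a ribosomal protein gene, so it lies near both. At linc-165 (III 7402234 to 7406071) the site of rank 1205, 208 bases beyond the 3′ end, ranked 181 in replicate 2 and had no partner in replicate 1. The site at linc-111 (IV 16190576 to 16191137) ranked 1865 in the pool, 2803 in replicate 2 and 17398 in replicate 1, and its window held TGATAC, the only one of the 23 strong regions to do so.

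The opposite order, with replicate 1 ahead, was seen at more of them. At linc-14 (V 17539172 to 17539475) the site of rank 907 ranked 825 in replicate 1 and 8867 in replicate 2, and it lay nearer to a protein-coding start, that of C18D4.6 at 455 bases, than to the start of linc-14. At linc-125 (II 7238948 to 7242909) the site of rank 965 ranked 463 and 28048.5 in that order. At linc-147 (III 3672048 to 3674245) the site of rank 1070, 265 bases before the 5′ end, ranked 2648 and 7454. At linc-72 (II 8819542 to 8820163) the site of rank 1606 ranked 2537 and 10401, and its summit lay within the span of F46C5.1. The sites of rank 1083 at linc-76 (III 11126863 to 11129355) and of rank 2005 at linc-103 (X 6256778 to 6258976) ranked 563 and 403 in replicate 1 and had no partner in replicate 2. How much each replicate's reads added to the pooled signal was not measured.

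Several genes held a row of regions, and at some of these genes the replicates divided. At each gene with 4 or more pooled regions, some of the listed regions overlapped each other. The counts are thus of listed regions and not of separate stretches. The most pooled regions, 5, lay in linc-156 (I 5073579 to 5079303), a gene of 5725 bases. The protein-coding starts nearest to them were those of fhod-1, a formin gene, and vha-16, a gene for a subunit of the vacuolar proton pump. The best ranked 2084, and replicate 2 had 6 regions there and replicate 1 only 1. At linc-22 (X 9069138 to 9073735) there were 4 pooled regions, the best at rank 11773. Replicate 2 had 5 regions there, the best at rank 1086, and replicate 1 had none. At linc-103 the reverse was seen, with 4 pooled regions, 4 in replicate 1 and none in replicate 2. The other genes with 4 pooled regions were linc-143, linc-153 (V 11641024 to 11643916, best rank 2669) and linc-129 (III 10817263 to 10821245, best rank 11190). There the replicates were more even. Replicate 1 had 2, 3 and 3 regions in that order, and replicate 2 had 2, 2 and 4. At linc-129 the best ranks in the replicates, 3082 and 2864, came from different sites. Finally, linc-60 (IV 14958931 to 14959349) was among the 5 best of replicate 2. Its site 166 bases before the 5′ end ranked 569 there and 6473 in the pool, with no partner in replicate 1, whose region at the gene (rank 6318) lay elsewhere.

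The replicates shared some of the genes and fewer of the sites. Regions in both replicates were found at 50 of 194 lincRNA genes (25.8%, interval 19.8 to 32.5), against 27.2% of all genes. In all 3 lists 44 genes had a region (22.7%, against 24.2%). A further 57 genes (29.4%) had none in any list, against 33.6% of all genes and 16.8% of protein-coding genes. The longest of the 57 were linc-135 (3740 bases), linc-157 (2909 bases) and linc-89 (2161 bases), all on IV. Of the 135 pooled regions 79 had a summit of replicate 1 within 200 bases and 66 one of replicate 2, 26 had both (19.3%, against 21.0% of all pooled regions) and 16 had neither. Both partners were present for 16 of the 23 strong regions, against 65.1% of all strong pooled regions, and for 10 of the 112 weaker ones, against 16.1%. The strong lincRNA regions were thus paired about as often as strong regions elsewhere, and the weaker ones less often by count, a difference that was not tested.

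Where the replicates met at a site, ranks followed each other loosely. For 28 sites at lincRNA genes with summits within 200 bases, each region used once, Spearman's rho between the replicates' signal values was 0.37, and Pearson's r of the log2 values was 0.51. These describe sites that share the same libraries, with no test. Over all 5893 such sites of the genome rho was 0.13 and r was 0.21. An approximate 95% interval for the rho of the 28 sites, 0.00215 to 0.656, holds the 0.13. Without the 2 strongest sites, in linc-91 and linc-128, the rank correlation was 0.22 over the remaining 26. In 5 of the 28 sites both ranks were 3000 or better (17.9%, against 4.16% of all sites), and these were the sites of linc-91, linc-128, linc-151, linc-143 and linc-107 described above.

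**Figure D4:**
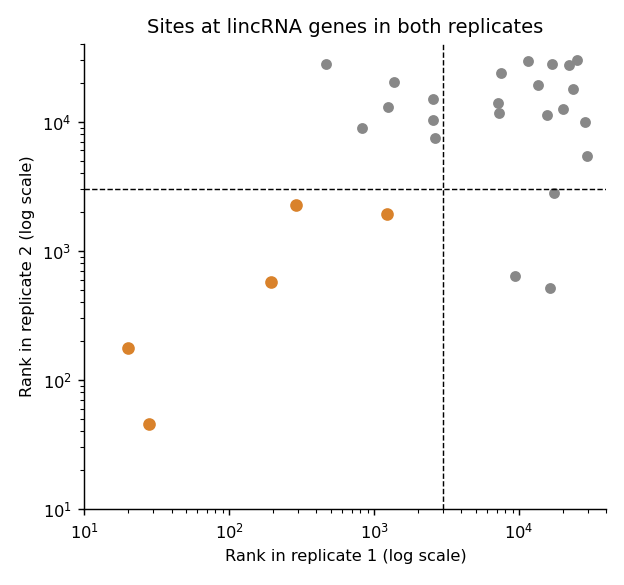
Ranks in replicate 1 (x axis) and replicate 2 (y axis), both on log scales, of the 28 sites at lincRNA genes with summits within 200 bases; dashed lines mark rank 3000. The 5 orange points are strong in both replicates, and the other 23 points are weaker in at least 1 replicate.

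Summits fell evenly along the genes. Of the 135 summits 74 lay inside a lincRNA gene (54.8%, interval 46.0 to 63.4), which is close to the share of the gene spans in the length of spans and flanks. Before the 5′ end lay 32 (23.7%) and beyond the 3′ end 29 (21.5%), where each flank makes up 22.5% of the length. From the 5′ end onwards 4 equal stretches of the gene held 20, 15, 18 and 21 of the 74. Exons held 54 of the 74 (73.0%, 61.4 to 82.6), and exons make up 64.8% of the length. The 23 strong regions had 15 inside (65.2%, 42.7 to 83.6), 3 before and 5 beyond. All of these intervals held the share of the length, so neither the 5′ end nor any other part of the genes was favoured to a degree that could be seen with this number.

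**Figure D5:**
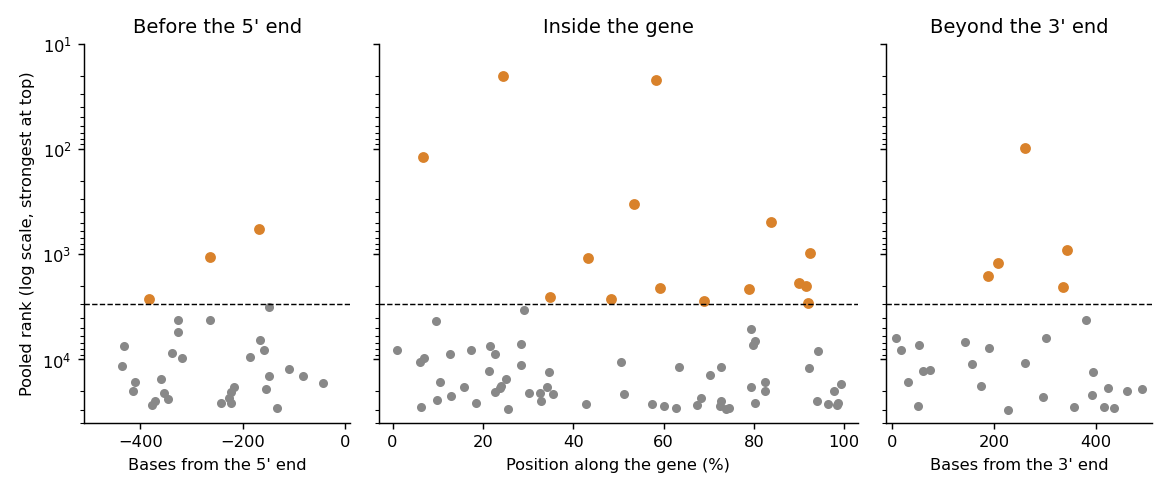
Pooled rank (log scale, strongest at the top) of the 135 regions against the place of the summit before the 5′ end (bases), inside the gene (% of its length) and beyond the 3′ end (bases) of the lincRNA gene; orange points are the 23 strong regions, and the dashed line is rank 3000. Points fill all 3 panels, with 15 of the 23 orange points inside genes.

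Protein-coding starts were mostly distant. The median distance from a summit to the nearest one was 2660 bases, and to the lincRNA 5′ end it was 677 bases. A protein-coding start stood no more than 500 bases from 19 of the 135 summits (14.1%), against 26.0% of all pooled regions. Within 500 bases of the lincRNA 5′ end lay 61, of which 49 had no protein-coding start within that distance. The lincRNA 5′ end was the nearer one for 108 of 135 regions (80%), a share that the choice of regions by closeness to lincRNA genes raises. A tRNA, snRNA, snoRNA, miRNA or rRNA gene lay within 500 bases of 5 of the regions (3.70%). The share over all pooled regions is not given here, so this cannot be read as few or many.

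Base composition was close to that of the list at large, and of the words only ACACAC had an interval clear of the value of all regions. The G+C content of the 135 regions was 35.6% ± 5.87 (SD over regions), against 36.2% ± 5.75 for all pooled regions, and that of the 23 strong ones 39.3% ± 6.90, against 38.0% ± 5.89 for all strong regions. Of the forms of the site bound by SIX4 and SIX5 in vertebrates, TGATAC stood within 100 bases of 12 of 135 summits (8.89%; all regions 6.84%) and TGACAC of 6 (4.44%, 1.65 to 9.42; all regions 8.07%). GAGAGA stood at 26 (19.3%, 13.0 to 26.9; all regions 13.1%), ACACAC at 20 (14.8%, 9.29 to 21.9; all regions 8.04%), CGTCTC at 5 (3.70%; all regions 6.79%) and the homeodomain core TAATTA at 11 (8.15%; all regions 8.59%). The ACACAC interval lay above the value of all regions, and the intervals of the other 5 words held theirs, that of GAGAGA only just. In all 7 words were searched, and no allowance was made for their number. Among strong regions the shares of ACACAC were 13.0% at lincRNA genes and 12.2% in all. The word CGCGCAGG, part of the MEX motif of the dosage compensation complex, stood at none of the 135, with an exact interval that reaches 2.70%, and in 0.133% of all regions. A word in a window is a description and not a bound site.

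Most of the regions held only words of sequence that occur once in the genome. This describes the assembly and does not show how reads were placed. All 32-base words of a region occurred only once in the genome for 81.5% of the 135, against 85.6% of all pooled regions. Among strong regions this held for 78.3% of the 23 at lincRNA genes, against 89.9% of all strong regions. Under 50% of the words were unique in 2 of the 135 regions (1.48%, against 0.353% of all pooled regions). These lay at linc-74 and linc-32, with ranks of 17736 and 20468. In the top region of each gene, all words were unique at linc-128, linc-91, linc-151 and linc-107, and 95.9% were at linc-143. The developmental timing gene lep-5 (X 12652591 to 12653520, minus strand), named here for its known role and outside the rule for named genes, had 3 pooled regions. They ranked 7788, 18945 and 21245, the first beyond its 3′ end, the next 155 bases before its 5′ end and the last in an exon. Replicate 2 had 2 regions there, the better at rank 15655, and replicate 1 had none. None of them reached rank 3000.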

How the data were processed

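Regions came from the deposited narrowPeak lists on ce11: 1 list per replicate, the pooled list and the optimal list. According to the submitters' processing notes, a replicate list drew on that replicate's alignments and on 1 further file, shared by both, that also served control-normalised tracks. The signal value of each region is the authors' own and was used for ranks within a list only. Depth is unknown, and the aligner, the caller and the IDR threshold are not given here. Lists on ce10 were not used, because the annotation (Ensembl release 115, WBcel235) is on ce11.

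A summit in a gene or within 500 bases of it was assigned to that gene, ties took the mean rank, and summits within 200 bases were called the same site. Gene lengths, positions and protein-coding starts came from Ensembl, and sequence from RefSeq WBcel235. Shares have exact Clopper-Pearson intervals, and no enrichment was tested. The assignment was checked on planted summits. Named genes were those with the 15 best pooled ranks, the 5 best of each replicate, an optimal peak, strong regions in all 3 lists or the most regions, and the 3 longest without any. Members and words were chosen with earlier results of these data known. Other distances, overlap rules, single replicates and gene subsets were tried. Work was done in Python 3.11.15 with scipy 1.17.1, pandas 2.3.3 and numpy 2.4.6, and plots were drawn with matplotlib 3.10.9.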

Additional observations from a re-analysis of the deposited data

How the results depend on the processing

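Of 55 recomputed values, 42 stayed within the interval of the reported value, or within 1.5 times a reported count. The others followed from the distance or threshold set. The share of lincRNA genes with a pooled region (45.4%) became 26.3% with summits inside the gene only, 35.6% at 250 bases, 59.3% at 1000 bases and 32.5% when any overlap of region and gene was taken. All genes moved alike, with 24.1%, 36.3% and 61.0% at the first 3 of these. The share in both replicates (25.8%) became 12.4%, 18.0%, 40.2% and 16.5% in the same order. The share of summits inside the gene (54.8%) became 71.2% at 250 bases and 38.7% at 1000 bases, by construction. Strong regions (23) became 15 inside the gene only, 12 at rank 1500 or better and 2 as optimal peaks. At rank 1500 or better their share was 8.89% of 135, where the full list has 5%. The exact interval for 12 of 135 holds that 5%, so the share was not clear of the full list at this stricter rank.

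Leaving out a replicate gave a share of genes of 44.8% to 47.4%, a density ratio of 0.991 to 1.09, a median rank of 11555.5 to 13477, a share inside of 52.9% to 54.3%, an X share of 17.5% to 23.9% and 24 to 29 strong regions. Of the 88 genes with a pooled region, 68 had one in replicate 1 and 56 in replicate 2. Counting overlapping regions once left 23 strong regions of 119 (19.3%, full list 10.7%), and the genes clear of protein-coding spans had 18 of 106 (17.0%). Keeping only regions with unique 32-base words, chosen after the data were seen, left 18 of 110 (16.4%, full list 10.5%). No paired analysis was possible because both replicates belong to the same group. Depth is unknown, so weak regions cannot be told from background.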
